A study of Homo sapiens with 4 samples.

Results

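TAK1, its TAB partners, the IκB kinases and the TRAF adaptors form the relay that carries signals from receptors to NF-κB, and this relay was examined at the mRNA level after Efp silencing. The group was listed by function and holds 10 genes: MAP3K7, TAB1, TAB2, TAB3, CHUK, IKBKB, MAP3K14, TRAF2, TRAF3 and TRAF6. Of these, 8 had a probe set with 1 gene symbol, out of 18417 genes measured in the series, and each of the 8 had 1 probe set. The only probe set that names TAB1 names a second gene too and was not used, and for TRAF2 no probe set with its symbol was used here, so both enter only the promoter search. The study compared siEfp, an siRNA against Efp, with the negative control siControl in a pair of established endometrial cancer lines, Ishikawa, which expresses ERα, and HEC-1A, which is described as lacking it. Both lines were kept in DMEM with fetal bovine serum. Each line gave 1 siControl array and 1 siEfp array, 4 arrays in all. The methods name duplex #A and 48 h for the Ishikawa arrays, and the sources used here give neither for HEC-1A.

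Receptors of the TNF, interleukin-1 and Toll-like families recruit TRAF proteins, which build or bind ubiquitin chains after stimulation. TAB2 and TAB3 bind such chains and bring along TAK1, the kinase encoded by MAP3K7, which activates the IκB kinase complex of IKKα (CHUK), IKKβ (IKBKB) and NEMO (IKBKG). IKKβ marks IκB for degradation and so frees NF-κB. A separate, slower route runs through the NF-κB-inducing kinase NIK (MAP3K14) and IKKα, and TRAF3 together with TRAF2 holds NIK at a low level in resting cells. Efp, a RING finger ubiquitin ligase encoded by TRIM25, takes part in antiviral signaling that ends in NF-κB and IRF activation.

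TRIM25, the targeted gene, had log2 RMA signals of 9.42 with siControl and 7.96 with siEfp in Ishikawa cells. In HEC-1A cells its signals were 9.50 and 7.93. The siEfp array was the lower one in both lines, and limma over both lines gave a difference of -1.52 (SE 0.12, adjusted p = 0.0342). ESR1, which encodes ERα, had signals of 6.91 and 6.65 on the Ishikawa arrays and of 4.45 and 4.77 on the HEC-1A arrays. The keratin gene KRT18 lay between 11.56 and 11.92 on all 4 arrays. CDH1, which encodes E-cadherin, was at 10.22 and 9.62 in Ishikawa cells. In HEC-1A cells it was at 4.07 and 3.74, below the median of these arrays. limma called 8 of the 9 measured epithelial markers lower in HEC-1A than in Ishikawa cells, beside 17.0% of all genes. KRT18 was the 1 not called. The leukocyte marker PTPRC did not exceed 3.17. Of the 7 measured immune markers, 1 had a mean signal of at least the median over genes. It was CD68, at 5.98 and 5.58 in Ishikawa and at 6.97 and 7.26 in HEC-1A cells. Of 9 measured epithelial markers, 8 were lower with siEfp in Ishikawa cells and 7 in HEC-1A cells, beside 47.6% and 47.7% of all genes. The median difference of the 9 was -0.21 on the log2 scale in each line, beside 0.01 over all genes. limma called 0 of the 9 for siEfp, and the part of these markers in the results below was not tested. With 1 array per condition in a line, a difference within a line is a value without a test.

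TAB3 was the member furthest from its control, and it was lower with siEfp in both lines. Its product is an adaptor that links ubiquitin chains to TAK1. In Ishikawa cells the TAB3 probe set (8171901) read 8.71 on the siControl array and 7.58 on the siEfp array, as log2 signals. In HEC-1A cells the signals were 8.34 with siControl and 7.68 with siEfp. Both siControl signals thus lay above both siEfp signals, whatever the line, and the share of all genes that do so was not counted. The log2 differences were -1.13 in Ishikawa cells, 2.19-fold lower, and -0.66 in HEC-1A cells, 1.58-fold lower. TAB3 ranked 96 from the lowest of 18417 differences in Ishikawa cells and 249 in HEC-1A cells. Counting TAB3 itself, 50 genes were at least as low as TAB3 in both lines. In bulk RNA of a culture, a lower level in every cell and fewer cells with the transcript cannot be told apart.

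Over both lines TAB3 did not pass the test. limma was fitted to all genes and all 4 arrays, blocked by cell line, which leaves 1 residual degree of freedom and takes the lines as replicates of one effect. It gave TAB3 a difference of -0.89 (95% interval -1.26 to -0.53) and an adjusted p of 0.11 (Benjamini-Hochberg over 18417 genes). With limma, the adjusted p was 0.0440 when the prior variance followed the signal and 0.00331 when the dimmer genes, those under the median signal, were dropped, so the call depended on these settings. It was 1.0 without the block.

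TAB2, the paralog of TAB3 and a partner of TAK1 in the same complexes, did not follow it. Its signals were 8.25 with siControl and 8.07 with siEfp in Ishikawa cells, and 7.83 and 7.94 in HEC-1A cells. The differences of -0.18 and 0.12 were of opposite sign. MAP3K7, the kinase that both adaptors serve, had signals of 8.56 and 8.54 in Ishikawa cells and of 9.05 and 9.21 in HEC-1A cells. Its differences of -0.02 and 0.16 were small beside its gap between the lines. The limma intervals over both lines ran from -0.35 to 0.29 for TAB2 and from -0.23 to 0.37 for MAP3K7, which leaves room for small changes either way.

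Promoter windows were searched for the κB consensus, the sequence that NF-κB binds, since genes of this relay can themselves be NF-κB targets. Windows are the 250 bases before each start site in RefSeq (GRCh38.p14), and 10 windows of 9 of the listed genes were used. On either strand the consensus was found in 2 of the 10 windows, at TRAF3 and at the second start site of TAB2, and in 9.96% of 35116 such windows over all genes. TATAAA was in 0 of the 10 windows, again on either strand, and in 10.7% of all windows. For the paralogs, the TAB3 window is shown, and of TAB2 only the window that holds a match. The other TAB2 window, chr6:149317462-149317711 (plus strand), has 0 matches and is not shown. The windows shown lie at chrX:30889255-30889504 (minus strand) for TAB3, and at chr6:149318050-149318299 (plus strand) for TAB2. Both are written 5′ to 3′ on the strand of the gene, and capitals mark κB consensus matches, of which TAB2 has 2 that overlap.
TAB3: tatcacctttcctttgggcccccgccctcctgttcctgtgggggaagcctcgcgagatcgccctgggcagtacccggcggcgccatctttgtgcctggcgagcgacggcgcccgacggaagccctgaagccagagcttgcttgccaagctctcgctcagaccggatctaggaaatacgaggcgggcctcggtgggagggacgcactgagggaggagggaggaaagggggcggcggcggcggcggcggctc
TAB2: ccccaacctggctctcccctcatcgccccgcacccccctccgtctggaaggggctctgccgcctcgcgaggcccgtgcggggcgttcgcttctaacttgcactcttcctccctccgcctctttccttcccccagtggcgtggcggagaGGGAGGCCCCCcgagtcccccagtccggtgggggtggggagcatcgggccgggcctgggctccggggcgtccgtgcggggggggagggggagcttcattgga

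The absence of capitals in TAB3 says only that the consensus is not in that window, and a match is a description of the sequence, since binding was not measured. GC content was 68.8% for TAB3 and 73.2% for the TAB2 window shown, beside a median of 58.0% over all windows.

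**Figure D1:**
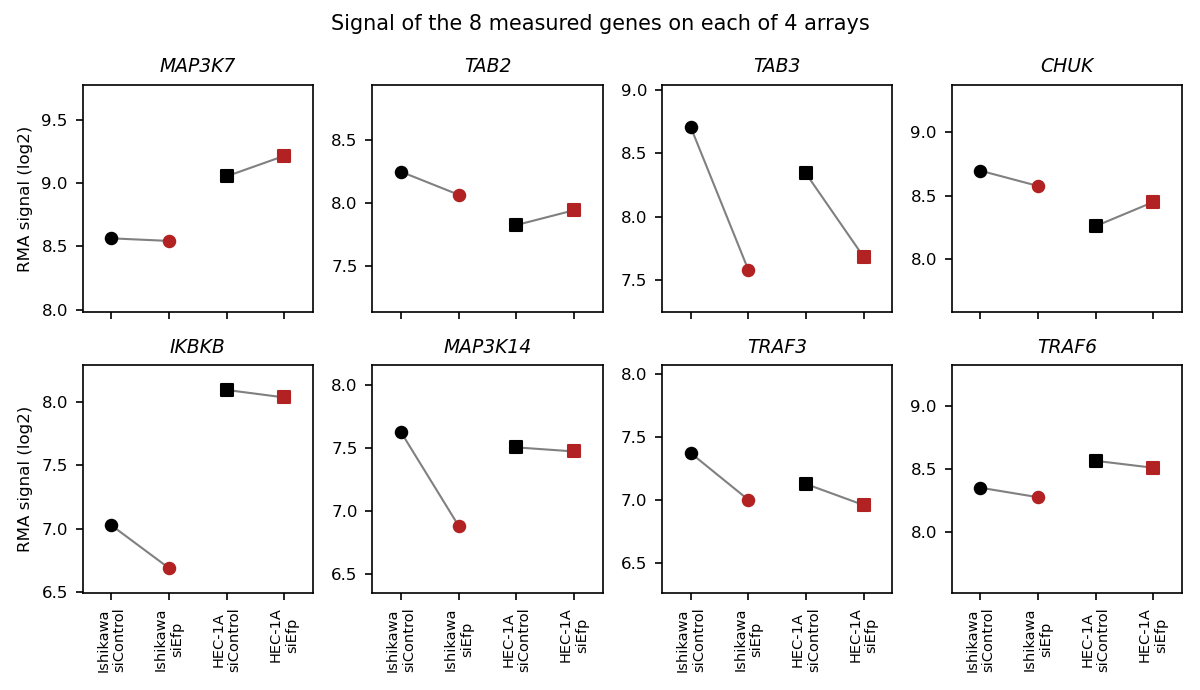
RMA signal (y axis, log2; every panel spans the same range of log2 units around its own centre) of the 8 measured genes on the 4 arrays (x axis). Circles are Ishikawa and squares HEC-1A arrays, black is siControl and red siEfp, and grey lines join the arrays of a line; TAB3 goes from 8.71 to 7.58 in Ishikawa and from 8.34 to 7.68 in HEC-1A cells, and MAP3K14 from 7.62 to 6.88 and from 7.50 to 7.47.

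MAP3K14, the kinase NIK of the slower route, was lower with siEfp in Ishikawa cells and close to its control in HEC-1A cells. Its signals were 7.62 with siControl and 6.88 with siEfp in Ishikawa cells. On the HEC-1A arrays they were 7.50 and 7.47. The Ishikawa siEfp array stood apart from the other 3, which lay within 7.47 to 7.62. The differences were -0.74, 1.67-fold lower, and -0.03, and those of the lines were 0.71 apart, a gap that could not be tested with 1 array per condition. limma over both lines gave -0.39 (SE 0.18, adjusted p = 0.47).

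CHUK, which encodes IKKα, the kinase that NIK activates, had signals of 8.70 and 8.58 in Ishikawa cells and of 8.26 and 8.45 in HEC-1A cells. With siEfp it was slightly lower in the former and slightly higher in the latter (-0.12 and 0.19). IKBKB, which encodes IKKβ, was at 7.03 with siControl and 6.69 with siEfp in Ishikawa cells. In HEC-1A cells it was at 8.09 and 8.04. The differences for IKBKB were -0.34 and -0.06, both far smaller than its gap between the lines. Neither catalytic IKK subunit passed the limma test for siEfp, with adjusted p-values of 0.95 for CHUK and 0.62 for IKBKB.

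TRAF3, which restrains NIK, had signals of 7.37 and 7.003 in Ishikawa cells and of 7.13 and 6.96 in HEC-1A cells. Both siEfp signals lay below both siControl signals, with differences of -0.37 and -0.17. The share of all genes with this order was not counted either. limma gave TRAF3 a difference of -0.27 (SE 0.13, adjusted p = 0.47). TRAF6, the ligase of interleukin-1 and Toll-like receptor signaling, was at 8.35 and 8.28 in Ishikawa cells and at 8.56 and 8.51 in HEC-1A cells. Its differences of -0.08 and -0.05 were the closest to each other of the 8 genes.

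The windows of MAP3K14, chr17:45317021-45317270 (minus strand), and TRAF3, chr14:102777199-102777448 (plus strand), are shown as the kinase of the slower route and the adaptor that restrains it. They are written like those of the TAB genes, and the match in TRAF3, in capitals, ends 24 bases before the start. GC content was 73.6% for MAP3K14 and 86.4% for TRAF3.
MAP3K14: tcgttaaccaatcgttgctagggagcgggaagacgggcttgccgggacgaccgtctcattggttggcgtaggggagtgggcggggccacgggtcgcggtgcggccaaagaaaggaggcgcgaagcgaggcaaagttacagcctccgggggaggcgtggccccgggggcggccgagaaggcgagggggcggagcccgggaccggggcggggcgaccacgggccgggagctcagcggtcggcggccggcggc
TRAF3: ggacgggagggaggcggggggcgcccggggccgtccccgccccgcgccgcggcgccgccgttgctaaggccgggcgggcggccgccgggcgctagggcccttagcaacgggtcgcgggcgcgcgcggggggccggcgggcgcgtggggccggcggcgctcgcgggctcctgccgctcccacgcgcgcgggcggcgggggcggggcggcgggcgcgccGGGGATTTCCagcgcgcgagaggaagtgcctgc

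TRAF3, with a match, had differences of -0.37 and -0.17, and MAP3K14, without one, of -0.74 and -0.03. Whether a match goes with a difference was not tested.

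As a group, the 8 genes had mostly small differences, and the difference between the lines was not tested for the group. All 8 differences were negative in Ishikawa cells as deposited, and 7 of 8 after a second quantile normalization, which put MAP3K7 at 0.05. The median of the 8 was -0.26, beside 0.01 over all genes. All 8 genes had at least a median signal, and of the 9209 genes of that kind 54.4% were lower in Ishikawa cells with a median of -0.03, against 47.6% of all genes. In HEC-1A cells 5 of the 8 were lower, with a median of -0.04 beside 0.01 over all genes, of which 47.7% were lower, and of the genes of at least median signal 47.1% were lower, with a median of 0.01. Genes of that signal thus also had a lower median in Ishikawa than in HEC-1A cells. The 5 genes lower in both lines were TAB3, IKBKB, MAP3K14, TRAF3 and TRAF6, and 26.7% of all genes and 32.9% of genes of at least median signal were lower in both.

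At a 2-fold difference, TAB3 was the 1 of 8 genes lower in Ishikawa cells, where 0.804% of all genes were that much lower and 0.136% higher. None of the 8 reached 2-fold in HEC-1A cells, where 0.271% of all genes were lower and 0.103% higher. At 1.5-fold, TAB3 and MAP3K14 were lower in Ishikawa cells, beside 3.72% of all genes, and TAB3 in HEC-1A cells, beside 2.04%. No member was 1.5-fold higher in either line, as 1.49% and 1.34% of all genes were. TAB3 was the 1 member at least 1.5-fold lower in both lines, beside 0.961% of all genes. Among genes of at least median signal, as all 8 are, the shares 1.5-fold lower were larger, 5.31% in Ishikawa cells, 2.80% in HEC-1A cells and 1.74% in both. limma called 0 of the 8 for siEfp, while it called 0.157% of all genes lower and 0.00543% higher. At an unadjusted p under 0.05 limma had 1 of the 8, TAB3, and 2205 of 18417 genes. These counts rest on TAB3 and MAP3K14.

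**Figure D2:**
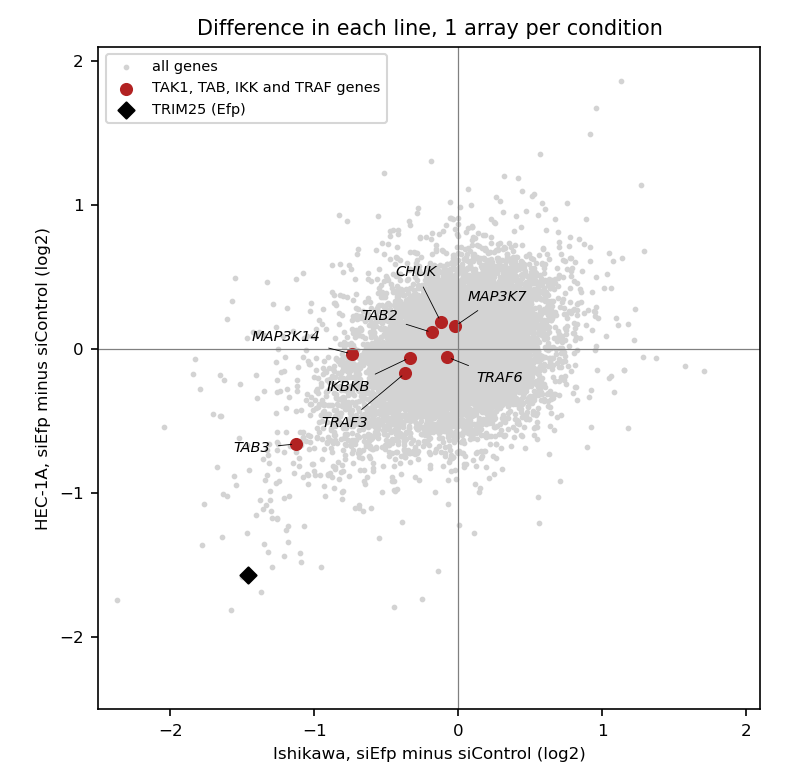
Log2 difference, siEfp minus siControl, in Ishikawa (x axis) and HEC-1A cells (y axis), with 1 array per condition. Grey points are all 18417 genes, red points the 8 measured genes of the group and the black diamond TRIM25; TAB3 lies toward the lower left at -1.13 and -0.66, MAP3K14 to the left at -0.74 and -0.03, and the other 6 between -0.37 and -0.02 on the x axis.

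Some members also differed in level between the lines, whatever the siRNA. In the same limma fit, the contrast of HEC-1A minus Ishikawa takes the siControl and siEfp arrays of a line as its replicates. IKBKB was higher in HEC-1A cells by 1.21 (SE 0.13), 2.31-fold, with an adjusted p of 0.000728 by limma. All of its HEC-1A signals, at 8.04 and above, lay over its Ishikawa signals, which did not exceed 7.03. The share of all genes with signals apart in this way was not counted. By limma, 43.5% of all genes had an unadjusted p under 0.05 in this contrast. MAP3K7 was higher in HEC-1A cells by 0.58 (SE 0.13), 1.496-fold, with an adjusted p of 0.0120 by limma. These were 2 of 8 genes called higher, beside 18.3% of all genes. No member was called lower, beside 17.0% of all genes. CHUK was at -0.28 (adjusted p = 0.16, limma) and TAB2 at -0.27 (adjusted p = 0.17, limma) in this contrast. TAB3, MAP3K14 and TRAF3 had overlapping signals in the lines, and TRAF6 was higher by 0.22 (adjusted p = 0.21, limma).

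**Figure D3:**
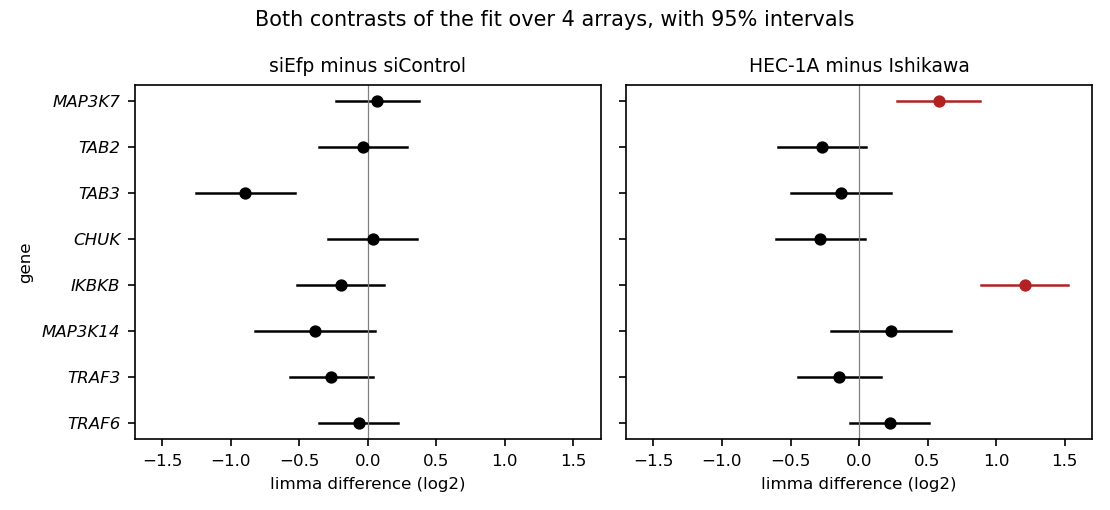
limma differences (x axis, log2) of the 8 genes over 4 arrays, for siEfp minus siControl (left) and HEC-1A minus Ishikawa (right). Points are the fitted differences, bars the 95% intervals and red marks an adjusted p under 0.05; IKBKB at 1.21 and MAP3K7 at 0.58 are red on the right, and TAB3 at -0.89 is black on the left.

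Around these genes, 9 further lists of the pathway held 114 measured genes, and limma called 0 of them for siEfp, with 16 (14%) at an unadjusted p under 0.05, 11 lower and 5 higher, beside 12% of all genes. Of the 114, 61 were lower in Ishikawa cells, 65 in HEC-1A cells and 43 in both, beside 47.6%, 47.7% and 26.7% of all genes. Their medians were -0.02 and -0.04, beside 0.01 over all genes in each line. Among genes of at least median signal, as most of the 114 are, the shares lower were 54.4%, 47.1% and 32.9%. TGFBR2, a TGF-β receptor whose complex can activate TAK1, came closest to a call in limma (-0.81 in Ishikawa and -1.04 in HEC-1A cells, adjusted p = 0.074), and it was the 1 gene of the 114 at least 1.5-fold lower in both lines. Its signals were 10.64 with siControl and 9.83 with siEfp in Ishikawa cells, and 9.76 and 8.72 in HEC-1A cells. TGFBR1, its partner in the receptor complex, had differences of -0.58 and -0.39. At the other end of the 17 measured receptors, LTBR, the lymphotoxin β receptor, was at 0.47 and 0.09 and TLR2, a Toll-like receptor, at 0.01 and 0.28. In HEC-1A cells 13 of the 17 receptors were lower, with a median of -0.13, against 7 in Ishikawa cells.

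Of the remaining TRAF genes and TANK, a TRAF-binding adaptor, 7 of 10 were lower in Ishikawa cells, with a median of -0.21. For this list and those below, the shares of all genes lower were 47.6% in Ishikawa and 47.7% in HEC-1A cells. TRAF7, a more distant relative of the other TRAF proteins, was at -0.76 and -0.17, in the order Ishikawa and HEC-1A, and TANK at -0.58 and -0.07. TRAF4 was at 0.19 and 0.32 and TIFA, which binds TRAF6, at 0.19 and 0.14. Of 17 adaptors and kinases next to the receptors, 11 were lower in Ishikawa and 9 in HEC-1A cells. MYD88, the Toll-like receptor adaptor, had signals of 7.02 and 5.67 in Ishikawa cells and of 5.22 and 5.32 in HEC-1A cells, that is differences of -1.35 and 0.10. MALT1, the paracaspase that works with BCL10, was at -0.94 and -0.17. IRAK2, a kinase of interleukin-1 signaling, had -0.11 and 0.68, and SQSTM1, a ubiquitin-binding scaffold, 0.30 and 0.18.

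Of 8 measured enzymes that make ubiquitin chains, 5 were lower in each line. UBE2N, which makes chains that TAB2 and TAB3 bind, had differences of -0.19 and -0.08. XIAP, a ligase that can bind TAB1, was at -0.46 and -0.20. RNF31, the catalytic subunit of the linear chain ligase, was at 0.51 and 0.07, and BIRC2, a ligase that acts on NIK, at 0.16 and 0.03. Deubiquitinases and negative regulators were lower in 8 of 17 cases in Ishikawa and in 9 in HEC-1A cells. OTULIN, which removes linear chains, was at -0.32 and -0.19 and the ligase ITCH at -0.27 and -0.05. CYLD, a deubiquitinase that restrains the pathway, was at 0.18 and 0.62, and USP18 at 0.34 and 0.24.

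Of the 8 IKK-related genes, a list that also holds the HSP90 genes HSP90AA1 and HSP90AB1, 3 were lower in Ishikawa and 5 in HEC-1A cells. IKBKG, which encodes NEMO, had differences of -0.10 and -0.16, and IKBKE, which encodes an IKK-related kinase, 0.02 and -0.28. TBKBP1, an adaptor of this kinase class, was at 0.27 and 0.37 and CDC37, a chaperone partner of kinases, at 0.05 and 0.10. Among 16 other MAP3K genes MAP3K21 was at -0.60 and -0.45 and MAP3K20 at -0.58 and -0.22, while MAP3K13 was at 0.30 and 0.35 and ARAF, a RAF kinase, at 0.53 and 0.08. Below TAK1, the JNK genes MAPK8 and MAPK9 had opposite signs in Ishikawa cells, with MAPK8 at -0.46 and 0.02 and MAPK9 at 0.45 and 0.24. MAPK10, a further JNK gene, was at 0.05 and -0.07. The p38 activators MAP2K6 and MAP2K3 were at -0.06 and -0.30 and at 0.37 and 0.14. NFKBIA, which encodes IκBα, had -0.45 and -0.17, and BCL3, an atypical IκB, -0.29 and -0.28. NFKBIB and NFKBID, which encode other IκB proteins, were at 0.32 and 0.31 and at 0.14 and 0.12. Of genes named from the lists, TLR2, TIFA, MYD88, IRAK2, RNF31, IKBKG, IKBKE, MAP3K13 and MAPK10 had mean signals under the median.

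**Figure D4:**
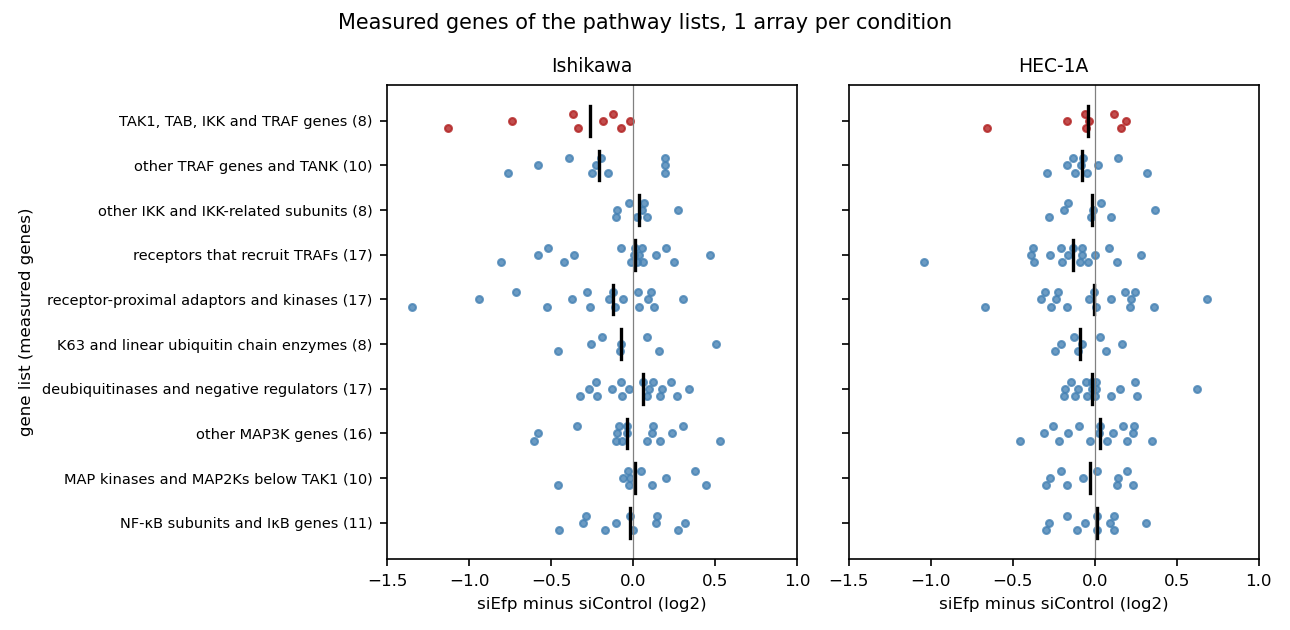
Log2 difference, siEfp minus siControl (x axis), of each measured gene in the group (red) and in 9 pathway lists (blue) in Ishikawa (left) and HEC-1A cells (right). Rows are lists with the number of measured genes, points are genes and black bars list medians; the group and the other TRAF genes have medians of -0.26 and -0.21 in Ishikawa cells, and in HEC-1A cells -0.04 and -0.08.

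In the contrast of the lines, most genes of the NF-κB subunits and IκB proteins, which IKK acts on, were higher in HEC-1A cells, as IKBKB was. limma called 8 of 11 NF-κB subunit and IκB genes higher and 0 lower, beside 18.3% of all genes higher and 17.0% lower. Of the 8 genes in the IKK-related list it called 4 higher and 0 lower. The 4 were AZI2, IKBKG, TBK1 and CDC37, the chaperone partner of kinases. The other lists had calls in both directions. Of the receptors 6 of 17 were called higher and 4 lower, of the adaptors and kinases next to them 9 of 17 and 3, and of the other TRAF genes and TANK 3 of 10 and 1. The ubiquitin chain enzymes had 3 of 8 higher and 1 lower, and the deubiquitinases and negative regulators 7 of 17 and 3. Among other MAP3K genes 3 of 16 were higher and 6 lower, and among the MAP kinases and their activators 2 of 10 and 3. NFKB2, the subunit precursor that NIK and IKKα act on, was higher by 2.03 (adjusted p = 5.17e-05), NFKBIA by 1.58 (adjusted p = 0.000227) and IKBKG by 0.89 (adjusted p = 0.00177) in that fit. NFKB2 was named after its value had been seen. These values compare the lines, with siControl and siEfp arrays together, and are no response to siEfp.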

How the data were processed

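Total RNA of 4 cultures of the established lines Ishikawa and HEC-1A was hybridised to Affymetrix arrays, 1 array per culture, from 150 ng of RNA per the labels. The authors deposited log2 RMA signals for each probe set, for which the labels name the tool Affymetrix Expression Console. Its version and the genome build were not given in the sources used here. The paper names an Exon 1.0 ST array, while the probe annotation is that of the Gene 1.0 ST platform. RMA brings arrays to one distribution and compresses differences of dim probe sets. Precision is limited by the number of arrays.

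Of 33297 probe sets, 19460 had 1 symbol, 1754 several and 12083 none. Probe sets of a gene were averaged, giving 18417 genes. All 8 member symbols matched RefSeq by gene ID. Differences are siEfp minus siControl in each line. limma 3.58.1 (R 4.3.3) was fitted over all genes with cell line and treatment as terms, and tested on simulated data. No SD between replicates exists within a line, and p-values rest on the lines or treatments as replicates. Arrays of 1 line correlated at 0.992 or 0.993, and across lines at 0.956 to 0.958.

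The members, gene lists and alternatives were chosen with earlier results of these data known. Named genes are all members, TRIM25, identity markers and up to 2 genes at each end of each pathway list by the mean difference of the lines. NFKB2 is named outside that rule, and so are MAPK10, HSP90AA1, HSP90AB1, AZI2 and TBK1. As alternatives, differences were centred, arrays were quantile normalized a second time, dim genes (under the median signal) were dropped, the brightest probe set was taken, and the fold threshold was set at 1.5. limma was also run without the block, with an intensity trend, and at an adjusted p of 0.1. Figures used Python 3.11.15 and matplotlib 3.10.9.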

Additional observations from a re-analysis of the deposited data

Results flagged for a closer look

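In 3 of the 8 genes the difference between siEfp and siControl had opposite signs in the lines. The share of all genes with opposite signs was not counted, so the count is not shown to be unusual. Of all genes, 47.6% were lower in Ishikawa cells, 47.7% in HEC-1A cells and 26.7% in both. CHUK was at -0.12 in Ishikawa and 0.19 in HEC-1A cells, 0.31 apart. TAB2 was at -0.18 and 0.12, 0.30 apart, and MAP3K7 at -0.02 and 0.16, 0.18 apart. With 1 array per condition these differences between the lines were not tested, and after a second quantile normalization MAP3K7 was positive in both lines.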

How the results depend on the processing

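The differences of the 8 genes within a line moved by at most 0.07 on the log2 scale when arrays were quantile normalized again. Centring on the median difference shifted every gene of a line by the same 0.01. Dropping dim genes, under the median signal, or taking the brightest probe set of a gene could not move these differences. All 8 genes have at least a median signal and 1 probe set each. MAP3K7 in Ishikawa cells changed sign, from -0.02 to 0.05, under the second quantile normalization. At a 1.5-fold threshold the count of members lower was 2 in Ishikawa and 1 in HEC-1A cells, against 1 and 0 at 2-fold. limma called 1 member for siEfp, TAB3, with an intensity trend (adjusted p = 0.0440) and without the dim genes (adjusted p = 0.00331), against 0 in the fit as reported, where TAB3 had an adjusted p of 0.11. Over these settings and the others its adjusted p ranged from 0.00331 to 1.0, the last without the block. The genes that limma called for siEfp numbered 29 lower and 1 higher, but 152 and 30 with the trend, 457 and 158 without dim genes, 41 and 3 after the second quantile normalization and 0 and 0 without the block. IKBKB and MAP3K7 were called between the lines under each of the 5 other settings tried for that contrast. Among these settings, an adjusted p under 0.1 in the same fit could not undo a call. The brightest probe set left the differences of both genes unchanged. No array could be left out, since that leaves no residual degree of freedom, and no paired analysis by replicate number was possible because each group has 1 array.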
